A study of Mus musculus with 2 samples.

Results

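G protein-coupled receptors carry signals across the plasma membrane through a bundle of membrane-spanning helices. The orphan receptors, which keep Gpr symbols, were named before a ligand was known for them, and several have since been paired with fatty acids, oxysterols or protons. Adhesion receptors, with Adgr symbols, join a long extracellular part to the same helical bundle, and many are cut near that junction and can be activated when the outer part is pulled away. In macrophages, receptors of both kinds are known for sensing metabolites and acidity, for positioning the cell in tissue and for contact with other cells. The genes described here were the protein-coding genes of the deposited table whose symbol is Gpr followed by a digit or starts with Adgr, without Gpr34 and Adgre1. There were 98 of them among 54532 genes, 72 with a Gpr symbol and 26 with an Adgr symbol.

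Their RNA was sequenced from RAW264.7, a tumour cell line of mouse that resembles macrophages. The compared cultures were RNF138 knockout RAW264.7 cells and wild type RAW264.7 cells, and both had received lipopolysaccharide (LPS), the outer-membrane component of Gram-negative bacteria, at 100 ng/ml for 3 hours. RNF138 is a ubiquitin ligase, and the study set inflammatory genes of cells lacking it against those of wild type cells. Each group had 1 library, so no value below has a replicate check, and culture, clone and genotype cannot be told apart. How the knockout line was made, and whether it is 1 clone, was not given, and no unstimulated culture was analysed here.

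The library labelled knockout held 19032311 counts and the library labelled wild type 15573989. Rnf138 itself went against the labels, with 4764 counts in the library labelled knockout and 602 in the library labelled wild type (ratio 6.55, interval 6.01 to 7.14). Counts over a whole gene do not show an edited exon, so the groups are called by their labels throughout and each direction rests on those labels. All 12 macrophage markers examined had counts in both libraries, with a median log2 ratio of 0.35, and Lyz2 (ratio 2.55, 2.46 to 2.64) and Aif1 (3.02, 1.74 to 5.51) were at least 2-fold higher in the library labelled knockout. Of the markers of other cells, Cd3e, Cd3g, Cd4 and Cd8a (T cells), Ms4a1 (B cells) and Epcam, Krt8 and Krt18 (epithelium) were at 0 in both. Lck, another T cell marker, had 55 counts in the library labelled knockout and 22 in the library labelled wild type. Of the endothelial markers, Pecam1 had 25 and 90 counts in those libraries, and Vwf went the other way with 18 and 10. The other endothelial markers had at most 5 counts in a library. The rest of these T cell, B cell and epithelial lists had at most 4 counts in a library. Levels of 1 gene are given as CPM, counts per 1000000 after scaling each library's total, and levels between genes as the authors' FPKM, which also divides by gene length. Intervals of levels and ratios are at 95% and cover counting error only.

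Most of these receptor genes had few counts or none. Of the 98, 35 had no count in either library (35.7%, against 35.4% of 22046 protein-coding genes). Of the other 63, 16 were detected in the library labelled knockout alone, 7 in the library labelled wild type alone, and 40 in both. Over all protein-coding genes the split was 1491 in the library labelled knockout alone and 514 in the library labelled wild type alone, and the library labelled knockout was the deeper. Only 24 members (24.5%) reached a mean count of 10 over the libraries and are called measured here, against 48.9% of protein-coding genes. The 74 others stayed below that minimum, 24 of the 26 adhesion receptors among them. A floor of 3 counts is 0.158 CPM in the library labelled knockout and 0.192 CPM in the library labelled wild type. The exact interval of a count of 0 reaches 0.195 CPM in the library labelled knockout, against 0.236 CPM in the other.

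A difference was taken as past the size rule when a measured gene differed at least 2-fold with an interval of the ratio excluding 1. By this rule 7 measured receptor genes were lower in the library labelled knockout (Adgre5, Gpr176, Gpr18, Gpr146, Gpr35, Gpr155 and Gpr183), 2 were higher (Gpr179 among them) and 15 were not past it. Over all 12668 measured genes, 3.62% were lower and 6.54% higher. Among the 24 members, 29.2% were lower and 8.33% higher, while the whole table had more higher than lower genes. The median log2 ratio of CPM (knockout label over wild type label) was -0.24 over the 24 members and 0.02 over all measured genes, and the members' ratios spread widely (order-statistic interval of their median -1.29 to 0.19, which holds 0.02). Gpr176 and Gpr18 had fewer than 10 counts in 1 library and reached the minimum through the other. Of the 10 members with a mean count from 10 to under 100, 5 were lower and 1 higher, and 9.12% of the 3257 genes in that range were lower and 15.4% higher. Of the 14 members with a mean count of at least 100, 2 were lower and 1 higher, against 1.71% and 3.47% of such genes.

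**Figure D1:**
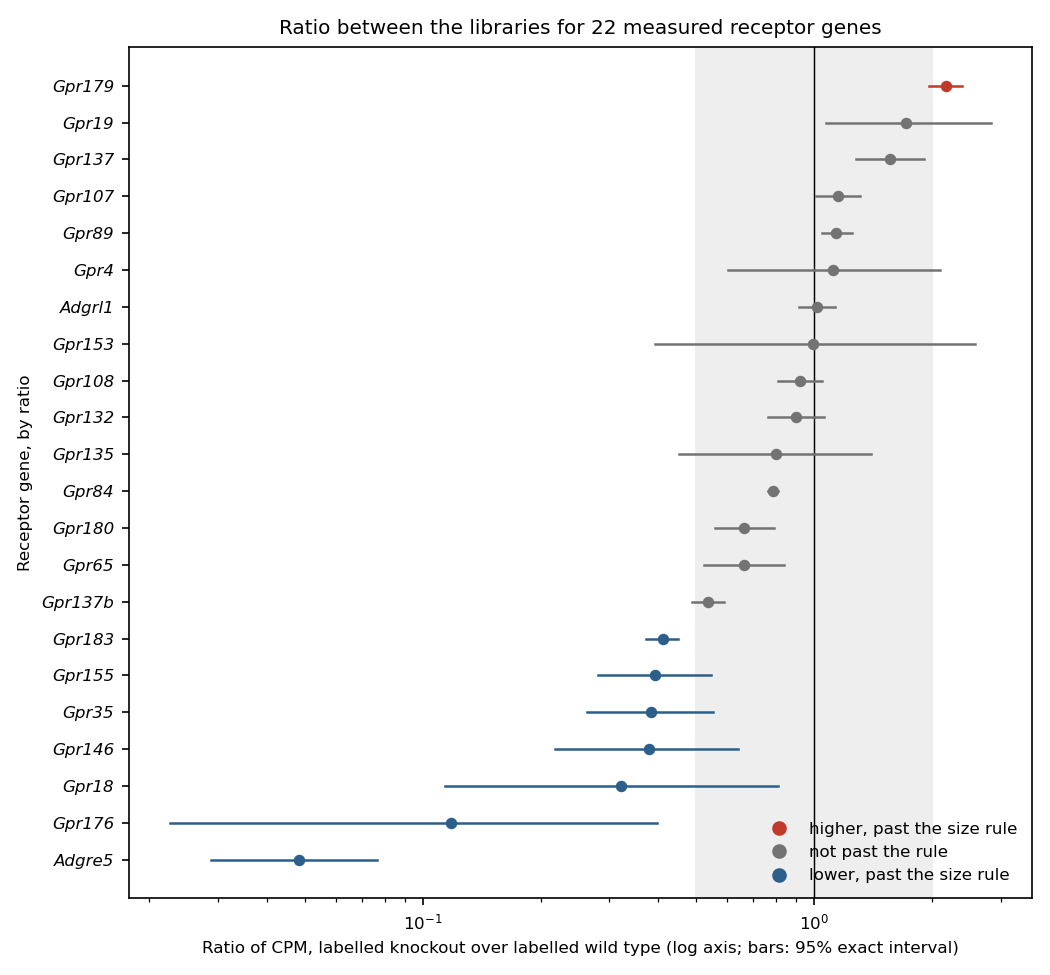
Ratio of CPM, labelled knockout over labelled wild type, on a log axis for 22 of the 24 measured receptor genes, sorted by ratio. Points are ratios, bars 95% exact intervals for counting error and the grey band spans less than 2-fold; 7 genes lie below the band and Gpr179 above it.

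Among receptors for lipids and other metabolites, all 4 measured genes had a log2 ratio below 0, as did 6043 of all 12668 measured genes. Of 8 in the table, 4 were measured, 3 of these were lower in the library labelled knockout, and the remaining one, Gpr84, was not past the rule. Over all measured genes 3.62% were lower by the rule. The share was 9.12% at a mean count from 10 to under 100, where Gpr18 and Gpr35 lie. Gpr84, a receptor for medium-chain fatty acids that couples to inhibitory G proteins, held most of the family's RNA. It had 8297 counts in the library labelled knockout (438 CPM, interval 429 to 448) and 8737 in the library labelled wild type (558 CPM, 546 to 570). That is 1.27-fold lower in the knockout-labelled library (1.24 to 1.31), short of the 2-fold limit. Per length, at 263 FPKM in the library labelled knockout and 337 FPKM in the library labelled wild type, Gpr84 stood first among the members in both. It ranked 153 and 91 in those libraries among all 22046 protein-coding genes. It took 52.6% of the members' counts in the library labelled knockout and 54.9% in the library labelled wild type. An antisense gene, Gm49482, covers 39.5% of the Gpr84 exon length and had no count in either library.

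Gpr183, also called EBI2, is the receptor through which oxysterols guide immune cells within lymphoid tissue. It was second in level among the members in both libraries, with 12.3 FPKM in the library labelled knockout and 30.1 FPKM in the library labelled wild type. It had 648 counts in the library labelled knockout (34.2 CPM, 31.6 to 37.0) and 1309 in the library labelled wild type (83.6 CPM, 79.1 to 88.2). The level was 2.44-fold lower in the knockout-labelled library (2.22 to 2.69), and the intervals of the levels lay far apart. Of the enzymes that make or break down its ligand, Cyp27a1 alone was measured, at 180 counts in the library labelled knockout and 142 in the library labelled wild type, a ratio of 1.05 (0.837 to 1.32). Ch25h, the enzyme that adds the first hydroxyl group, had 11 counts in the library labelled knockout and 1 in the library labelled wild type, and Cyp7b1 and Hsd3b7 had none in either.

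Gpr18, a receptor of the same lipid-sensing group whose ligand is debated, lies 36.8 kb from Gpr183 on chromosome 14. Both genes, at chr14:121911253-121915781 and chr14:121952551-121965195 on the minus strand of GRCm38, sit inside Ubac2, which is read from the opposite strand and shares no exon base with either. Gpr18 had 7 counts in the library labelled knockout (0.370 CPM) and 18 in the library labelled wild type (1.15 CPM), 3.11-fold lower in the knockout-labelled library on few counts (1.24 to 8.80). Their host Ubac2 differed less, with 1123 counts in the library labelled knockout and 1129 in the library labelled wild type, a ratio of 0.823 (0.757 to 0.895). Gpr18 and Gpr183 were the only measured members within 100 kb of each other, and the 250 bases before their RefSeq starts are shown because these neighbours were both lower. The RefSeq start of Gpr18, at base 121915888, lies 107 bases upstream of the gene's start in the deposited table, and that of Gpr183 is base 121965193. The sequences are RefSeq's, from the GRCm38.p6 reference of a C57BL/6J mouse and not from these cells, written 5′ to 3′ on the minus strand from chr14:121965194-121965443 for Gpr183 and chr14:121915889-121916138 for Gpr18. Capitals mark the letters AAANNGAAA on either strand, part of the element bound by interferon-activated factors.
Gpr183: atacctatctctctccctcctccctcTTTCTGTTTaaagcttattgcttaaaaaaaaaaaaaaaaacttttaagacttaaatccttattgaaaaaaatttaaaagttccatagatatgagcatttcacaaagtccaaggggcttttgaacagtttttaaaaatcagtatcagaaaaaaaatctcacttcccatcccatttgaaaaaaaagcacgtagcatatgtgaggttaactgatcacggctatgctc
Gpr18: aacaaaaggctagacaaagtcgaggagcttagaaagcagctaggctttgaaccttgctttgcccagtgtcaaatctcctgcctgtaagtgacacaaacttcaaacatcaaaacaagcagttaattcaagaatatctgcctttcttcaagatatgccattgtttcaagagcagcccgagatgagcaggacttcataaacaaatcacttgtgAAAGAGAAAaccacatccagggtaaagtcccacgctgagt

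Each of these windows held the AAANNGAAA letters once, starting 224 bases before the RefSeq start of Gpr183 and 40 bases before that of Gpr18. The same letters occurred in 9.37% of 32851 RefSeq promoter windows of this length, and in 14 of the 92 windows that belong to 72 of the members. Neither window held GGNNTTTCC (part of the NF-kappaB element, in 4.93% of all windows), the AP-1 letters TGANTCA (6.75%), the PU.1 core GAGGAA (23.3%) or the TATA letters TATAAA (12.4%). These motifs were searched on both strands, and a match is a description of letters and not a bound site.

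Gpr35, a receptor activated by tryptophan breakdown products, was the third of the lower lipid- and metabolite-sensing genes. It had 45 counts in the library labelled knockout (2.38 CPM, 1.73 to 3.18) and 97 in the library labelled wild type (6.19 CPM, 5.02 to 7.56). This was 2.61-fold lower in the knockout-labelled library (1.81 to 3.80). The next measured gene, Capn10 at 2.92 kb, had a ratio of 1.57 (1.25 to 1.99) and thus lay on the other side of 1. The other members of the group, Gpr31b, Gpr55, Gpr119 and Gpr174, had at most 3 counts in a library.

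The proton-sensing receptors, which raise cyclic AMP or calcium when the surroundings turn acidic, had no gene past the size rule. Gpr132, a lymphocyte and macrophage receptor also linked to oxidised fatty acids, had 298 counts in the library labelled knockout and 274 in the library labelled wild type, a ratio of 0.900 (0.761 to 1.06). Gpr65, which dampens cytokine production in myeloid cells by way of cyclic AMP, had 132 counts in the library labelled knockout and 165 in the library labelled wild type, a ratio of 0.662 (0.522 to 0.837). Gpr4, better known from endothelium, had 27 and 20 counts in those libraries and a ratio of 1.12 (0.603 to 2.10). The ratios of these genes lay on both sides of 1.

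Adhesion receptors were represented by 2 measured genes that are neighbours on chromosome 8, 1 past the rule and 1 not. Adgre5 encodes CD97, an adhesion receptor of leukocytes that binds CD55. It had 19 counts in the library labelled knockout (1.0 CPM, 0.604 to 1.57) and 326 in the library labelled wild type (20.8 CPM, 18.6 to 23.2). At 20.7-fold lower in the knockout-labelled library (13.1 to 34.9), it had the lowest ratio of the measured members, and the intervals of the levels did not meet. Adgre5 (ENSMUSG00000002885) lies at chr8:83723251-83741326 on the minus strand, and 23.8% of its exon length is shared with Ddx39 on the opposite strand. Ddx39 had 5060 counts in the library labelled knockout and 4096 in the library labelled wild type, a ratio of 1.02 (0.981 to 1.07), and reads of the shared stretch cannot be assigned where the counting strand is not given.

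Adgrl1, latrophilin-1, whose partners include teneurins and FLRT proteins, starts 159 kb beyond Adgre5 at chr8:83900105-83941954 on the plus strand. It had 769 counts in the library labelled knockout (40.6 CPM, 37.8 to 43.6) and 625 in the library labelled wild type (39.9 CPM, 36.8 to 43.2), a ratio of 1.02 (0.915 to 1.13), and the intervals of its levels overlapped. Gm10644 covers 12.9% of its exon length on the opposite strand, with 3 counts in the library labelled knockout and 4 in the library labelled wild type. Together the 26 adhesion receptor genes held 835 counts in the library labelled knockout and 991 in the library labelled wild type. Of the 24 below the minimum count, 9 had no count in either library. Among the fixed list of 12 adhesion receptor partners, 2 were measured and neither passed the rule. These were Tgm2, a transglutaminase that binds Adgrg1, with a ratio of 1.61 (1.38 to 1.89), and Flrt2, a latrophilin ligand chosen for naming after its values were seen, with a ratio of 1.87 (1.5 to 2.36). Cd55, the partner of CD97, had no count in either library.

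Adgre1, the F4/80 antigen gene that the rule for members leaves out, had 183 counts in the library labelled knockout and 542 in the library labelled wild type. Gpr34, the other gene left out and a lysophosphatidylserine receptor, had 11 and 14 counts in those libraries, with a ratio of 0.650 (0.267 to 1.54).

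**Figure D2:**
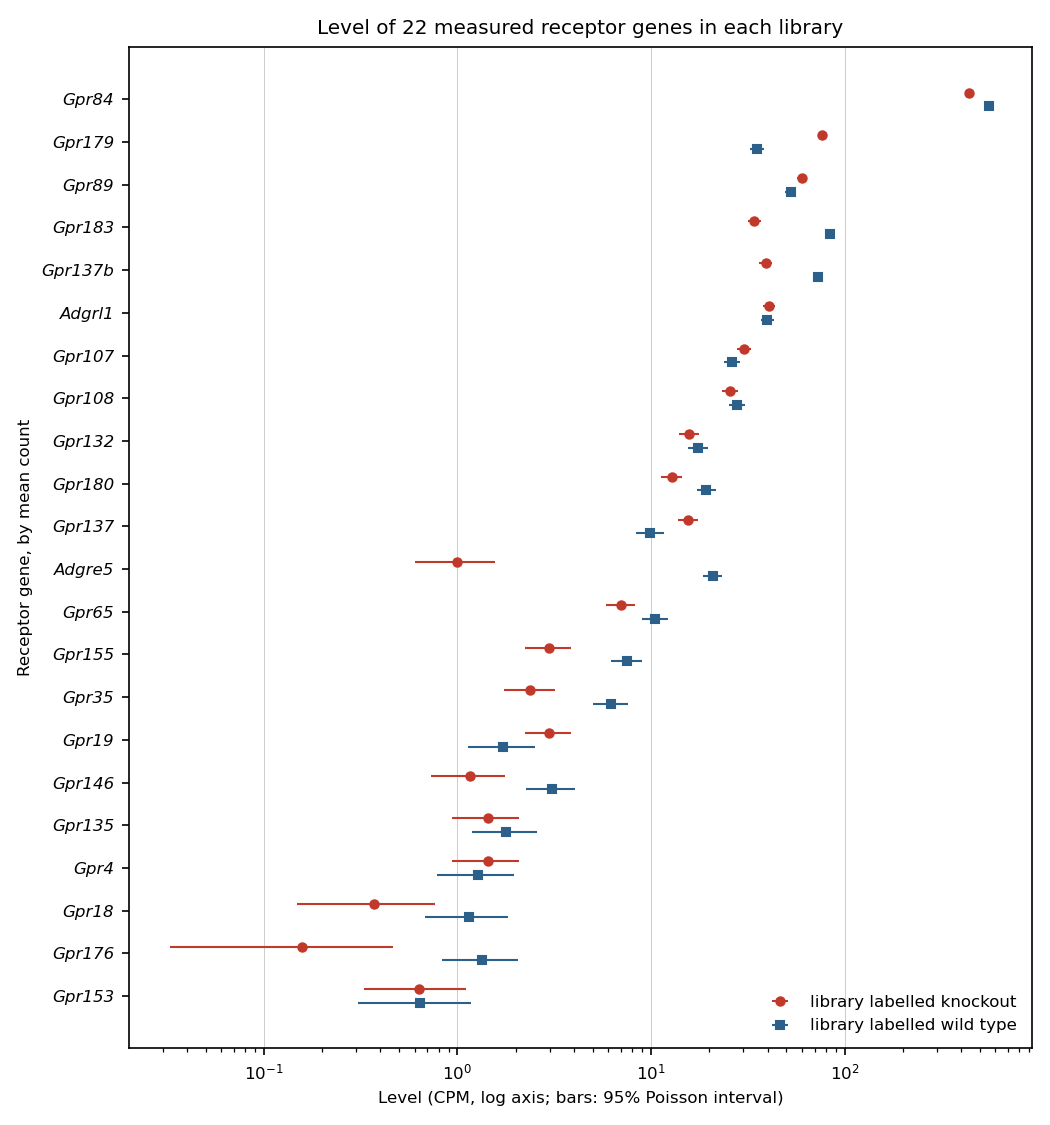
Level of 22 of the 24 measured receptor genes in CPM on a log axis, circles for the library labelled knockout and squares for the library labelled wild type, with 95% Poisson intervals as bars. Levels span in the library labelled knockout from 438 CPM (Gpr84) to 0.158 CPM (Gpr176), genes at 558 and 1.34 CPM in the library labelled wild type.

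Several proteins with a Gpr symbol are not classical cell-surface receptors but membrane proteins of the Golgi, lysosome or other compartments. Of 9 such genes, 7 were measured, 1 was lower in the library labelled knockout, none was higher and 6 were not past the rule. Over all measured genes, 3.62% were lower and 6.54% higher. Gpr155, a lysosomal protein that binds cholesterol and feeds into mTORC1 signalling, was the lower one. It had 56 counts in the library labelled knockout (2.96 CPM, 2.23 to 3.84) and 118 in the library labelled wild type (7.54 CPM, 6.24 to 9.02), which is 2.55-fold lower in the knockout-labelled library (1.84 to 3.57). Its neighbours Scrn3, at 3.69 kb, and Wipf1, at 43.0 kb, had ratios of 0.816 (0.692 to 0.962) and 0.703 (0.648 to 0.763). Gpr137b, a lysosomal membrane protein that also bears on mTORC1, came next, with 740 counts in the library labelled knockout (39.1 CPM) and 1143 in the library labelled wild type (73.0 CPM), a ratio of 0.536 (0.488 to 0.588). A copy annotated as a pseudogene, Gpr137b-ps, had 874 counts in the library labelled knockout and 1280 in the library labelled wild type, a ratio of 0.565 (0.518 to 0.616). Reads could be split between these copies, so the Gpr137b value is uncertain, although both copies had lower values in the library labelled knockout.

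The remaining genes of this kind were closer to 1. Gpr180 had 242 counts in the library labelled knockout and 302 in the library labelled wild type, with a ratio of 0.663 (0.557 to 0.788). Gpr137, a relative of Gpr137b, had 293 and 155 counts in those libraries and a ratio of 1.56 (1.28 to 1.91). Its exons lie for 15.4% of their length over Bad, a cell-death gene on the opposite strand that was itself higher in the library labelled knockout (406 counts, against 162 in the library labelled wild type). The Golgi proteins Gpr89, a regulator of Golgi acidity, Gpr107 and Gpr108 had ratios of 1.14 (1.05 to 1.25), 1.15 (1.01 to 1.31) and 0.920 (0.807 to 1.05). Gpr89 had 1141 counts in the library labelled knockout and 825 in the library labelled wild type. Gpr107 had 571 and 411 counts in those libraries, and Gpr108 had 484 and 435. None of these Golgi genes differed by as much as 2-fold.

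Among the members past the rule that were higher in the library labelled knockout was Gpr179, a class C orphan. Gpr179 (ENSMUSG00000070337, chr11:97332109-97352077) is known from the retina, where it anchors signalling proteins at the tips of bipolar cell dendrites. It had 1454 counts in the library labelled knockout (76.8 CPM, 72.9 to 80.9) and 555 in the library labelled wild type (35.4 CPM, 32.6 to 38.5). The ratio was 2.17 (1.96 to 2.39), so the lower end of its interval fell just under 2-fold. At 8.32 FPKM in the library labelled knockout and 3.87 FPKM in the library labelled wild type, it ranked 5 and 11 among the members. No exon of another gene overlaps it. Its neighbours Mrpl45, at 2.19 kb, and Socs7, at 10.5 kb, had ratios of 0.901 (0.837 to 0.968) and 1.06 (0.964 to 1.16).

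Of the members below the minimum count, 14 had at least 5 counts in a library. Of these 14, 5 were at 0 in the library labelled wild type and none at 0 in the library labelled knockout. Of the 2521 such genes of the table, 12.8% and 3.93% were. The library labelled knockout was the deeper, and the part of depth in these zeros was not tested. Adgra2, an endothelial co-receptor of Wnt signalling, had 9 counts in the library labelled knockout. Adgrb1, a brain receptor that also recognises phosphatidylserine on dying cells, had 8. The neuronal class C receptor Gpr158 had 7, the habenula receptor Gpr151 had 6 and the brain receptor Adgrb2 had 5. Against a floor of 3 counts the ratio was 2.48 for Adgra2, 2.21 for Adgrb1 and 1.93 for Gpr158, and the lower limits of the exact intervals were 1.63, 1.41 and 1.19 in that order. For Gpr151 and Adgrb2 the lower limits were 0.974 and 0.758, below 1, so the difference between the libraries there lies within counting error.

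Transcripts known from neurons had few counts, most of them in the library labelled knockout, the deeper library. The 6 neuron markers examined summed to 38 counts in the library labelled knockout (2.01 CPM) and 1 in the library labelled wild type (0.0639 CPM). In the library labelled knockout, Slc17a7 was at 0, and in the library labelled wild type all but Map2 were. The highest was Snap25 with 14 counts in the library labelled knockout. Low counts on that side alone were not limited to neuron markers. The mast cell markers summed to 9 counts in the library labelled knockout and 0 in the other, and NK cell markers to 3 and 0. Fibroblast markers summed to 10 and 9 counts in those libraries and neutrophil markers to 5 and 4. The part of neuron transcripts, or of depth, in the values of Gpr158, Gpr151 and the Adgrb genes was not tested.

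Among the other orphan receptors, 6 of 45 were measured, and 2 of them, Gpr146 and Gpr176, were lower. These 6 had mean counts from 10 to under 100, a range where 9.12% of all genes were lower. Gpr146, an orphan receptor linked to blood cholesterol levels, had 22 counts in the library labelled knockout (1.16 CPM) and 48 in the library labelled wild type (3.07 CPM), 2.64-fold lower in the knockout-labelled library (1.56 to 4.59). It lies inside 3110082I17Rik, a gene on the opposite strand with no shared exon base and a ratio of 1.44 (1.30 to 1.61). C130050O18Rik, 8.87 kb away, was also past the rule, with 22 counts in the library labelled knockout and 38 in the library labelled wild type. Gpr176, an orphan of the brain's circadian clock centre, had 3 counts in the library labelled knockout (0.158 CPM) and 21 in the library labelled wild type (1.34 CPM), a ratio of 0.118 (0.0226 to 0.396). The interval of that ratio is wide because it rests on 3 counts. Its nearest measured neighbour, Eif2ak4 at 15.2 kb, had a ratio of 0.589 (0.526 to 0.660). Gpr19, Gpr135 and Gpr153 had ratios of 1.72 (1.07 to 2.83), 0.798 (0.452 to 1.40) and 0.993 (0.393 to 2.57).

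The members below the minimum count carried little RNA. The constitutively active receptors Gpr3, Gpr6 and Gpr12, which raise cyclic AMP without an added ligand, held 2 counts in the library labelled knockout and 5 in the library labelled wild type in all. The next 3, named after their values were seen, had a few counts each. Adgrv1, the very large adhesion receptor of hair cells, had 5 counts in the library labelled knockout and 14 in the library labelled wild type. Adgrg1, a receptor for Tgm2 and collagen, had 3 and 9 counts in those libraries, and the brain orphan Gpr85 had 10 and 1. The size rule was not applied to them.

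Of the 98 members, 52 had an adjusted p in the authors' deposited table, and 3 of these were under 0.05, against 2.21% of the 18843 genes given one there. Among them were Adgre5 (log2 fold change -4.36, adjusted p 1.68e-12) and Gpr176 (-3.02 and 0.0203) in the authors' deposited table, whose tool was not given. With 1 library per group, those p-values rest on an assumed spread.

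**Figure D3:**
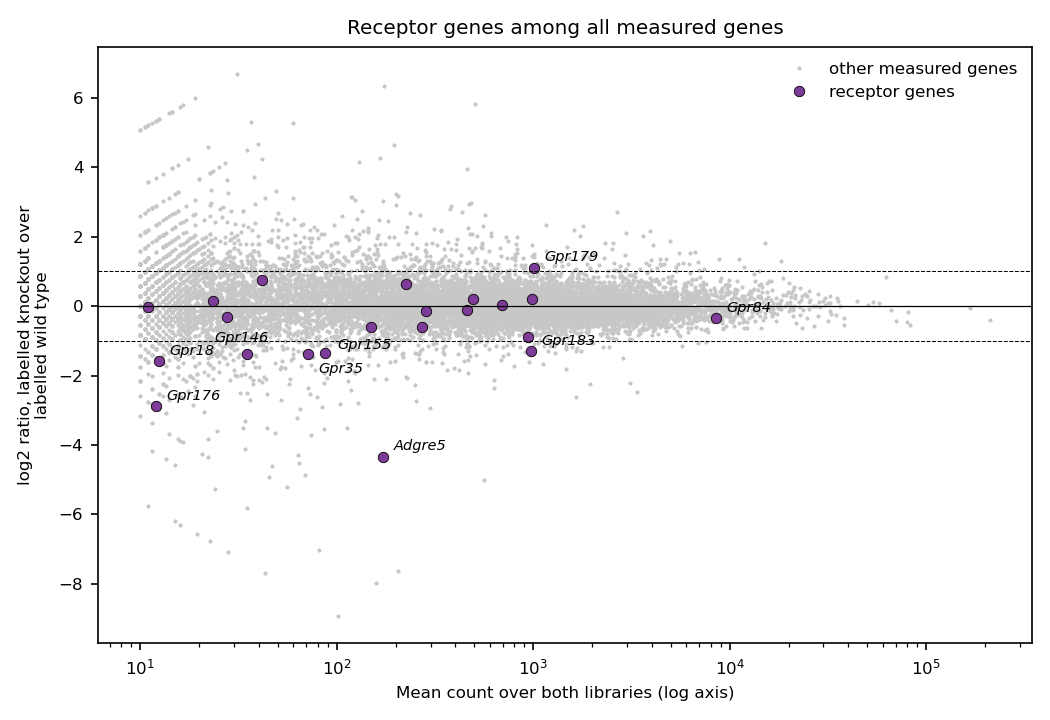
Log2 ratio of CPM (knockout label over wild type label) against mean count on a log axis for the measured genes of the table (grey) and 22 of the 24 measured receptor genes (purple), with dashed lines at 2-fold. These receptor genes reach from -4.34 (Adgre5) to 1.12 (Gpr179), and 15 of the 22 lie below 0.

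The receptors signal through shared partners. Of 9 measured G protein alpha subunits, 1 passed the rule, as lower, and 8 did not (median log2 ratio -0.08), against 3.62% lower of all measured genes. It was Gna15, a blood-cell subunit that accepts many receptors, with 238 counts in the library labelled knockout and 453 in the library labelled wild type, 2.30-fold lower in the knockout-labelled library (1.96 to 2.70). None of the 10 measured beta and gamma subunits (median 0.16), 5 receptor kinases and arrestins (median -0.10) or 6 genes of the Rhoa pathway (median -0.07) was past the rule. The most abundant of each list were Gnb1, with a ratio of 1.11 (1.07 to 1.14), Grk2, which phosphorylates active receptors, at 0.846 (0.807 to 0.887), and Rhoa at 0.792 (0.763 to 0.822).

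RGS proteins, which speed up the shut-off of G proteins, had 2 of 10 measured genes higher and none lower (median 0.12). Over all measured genes, 6.54% were higher and 3.62% lower. Rgs16 had 97 counts in the library labelled knockout and 29 in the library labelled wild type, a ratio of 2.77 (1.81 to 4.35), and Rgs12 had 22 and 4 counts in those libraries, a ratio of 4.55 (1.55 to 18.2). In the cyclic AMP pathway, 3 of 17 measured genes passed the rule, 2 of them higher and 1 lower (median 0.21), beside the same shares. Adcy2, an adenylyl cyclase, had 437 counts in the library labelled knockout and 131 in the library labelled wild type, a ratio of 2.76 (2.27 to 3.38). Adcy5, another cyclase, had 21 counts in the library labelled knockout and 1 in the library labelled wild type, a ratio of 17.4 (2.79 to 718). Prkar2b, a regulatory subunit of protein kinase A, was 3.69-fold lower in the knockout-labelled library (2.71 to 5.08), on 56 counts there and 171 in the library labelled wild type.

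Other receptors of the same superfamily that macrophages carry, from a fixed list of 48, lay on both sides of 1. Of 20 measured, 9 passed the rule, 4 of them higher and 5 lower, and the log2 ratios of the 20 had a median of -0.28. Over all measured genes, 6.54% were higher and 3.62% lower. The 4 genes named next had the largest absolute log2 ratios, and most of the higher genes are not among them. Adora2a, an adenosine receptor, was 6.22-fold higher in the knockout-labelled library (4.09 to 9.86), with 188 counts there and 25 in the library labelled wild type. The nucleotide receptors P2ry12 and P2ry13 were 4.82-fold (3.86 to 6.07) and 4.20-fold (2.94 to 6.13) lower. The leukotriene receptor gene Cysltr1 was 3.81-fold lower (2.83 to 5.18). Summed over all members, the orphan and adhesion receptors stood at 834 CPM in the library labelled knockout (821 to 847) and 1017 CPM in the library labelled wild type (1001 to 1033), a ratio of 0.820. Without Gpr84 the sums were 395 CPM in the library labelled knockout and 459 CPM in the library labelled wild type.

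**Figure D4:**
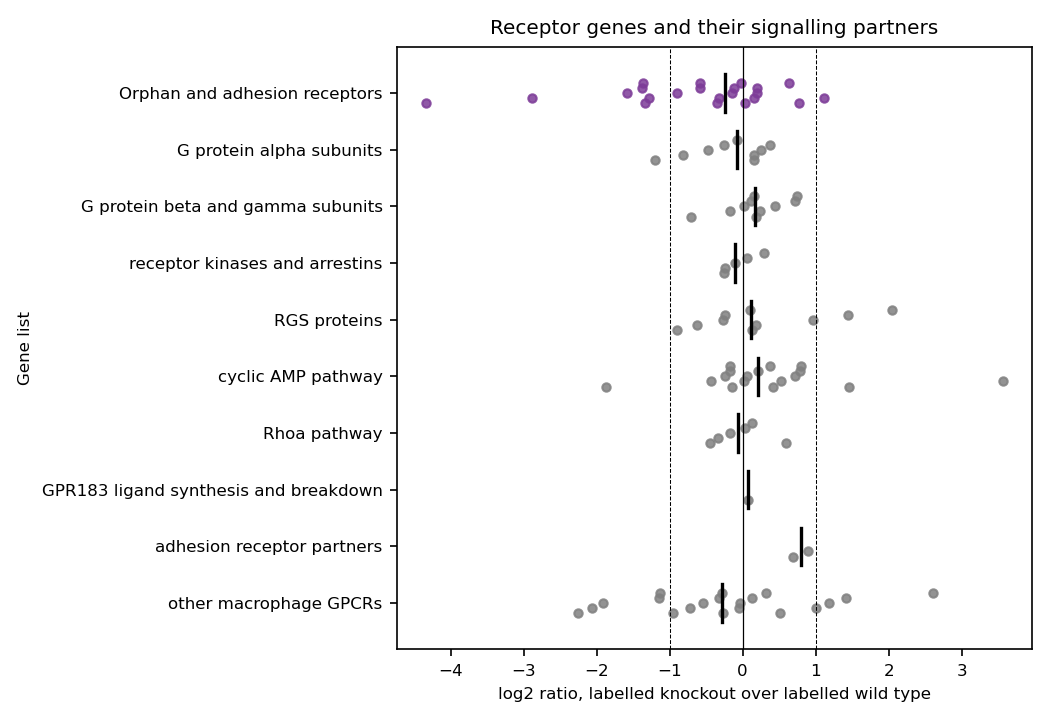
Log2 ratio of CPM (knockout label over wild type label) for 22 of the 24 measured orphan and adhesion receptor genes (top row, purple) and of each list of signalling partners or other receptors (grey), with black bars at medians and dashed lines at 2-fold. The median over all 24 receptor genes is -0.24, and medians of the lists with at least 5 measured genes run from -0.28 (other macrophage GPCRs) to 0.21 (cyclic AMP pathway).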

How the data were processed

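RNA of 2 libraries was counted per gene. The submitters' processing notes name featureCounts 1.5.0-p3, HISAT2 2.0.5 and CASAVA 1.8, with no roles, and the mm10 build (GRCm38). The sources used here do not give the strand setting, annotation release or filters. The authors deposited raw counts, FPKM, a signal that is the counts scaled between the libraries, log2 fold changes and p-values, per the file headers. 

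Counts were scaled with TMM factors from edgeR 4.0.16 (R 4.3.3), 0.995 for the library labelled knockout and 1.01 for the library labelled wild type. Groups of 1 library give no spread, so no test was made. Intervals are exact Poisson for levels and exact Clopper-Pearson, conditional on the summed counts, for ratios. Both cover counting error only and take reads as independent, which PCR copies of 1 molecule are not. A 0 was set to 3 counts in ratios, and log2 ratios had 0.5 counts added per library. The procedure was run on simulated Poisson counts, the spread that the intervals assume, so that run does not check spread between cultures. Exon overlaps came from GENCODE M21, which held all 98 identifiers.

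Named members are those past the size rule, those with at least 5 CPM in a library, those with 0 counts in 1 library and at least 5 in the other, and the 3 with ratios closest to 1. Others were chosen after their values were seen. From each partner list up to 4 genes past the rule, or the most abundant, are named. Members and lists were chosen with earlier results of these data known. Counts cover all members, but the values of some genes are not reported here.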

Additional observations from a re-analysis of the deposited data

How the results depend on the processing

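Scaling by DESeq2 1.42.0 size factors, total counts or upper quartiles kept 7 receptor genes lower and 2 higher, moved the log2 ratios by at most 0.02, and left the ratios of all 26 named members within their intervals. The sum over members gave ratios from 0.810 to 0.820. Counts followed the limits chosen. Without a minimum count, 5 of 63 members with a count were higher and 8 lower, against 1065 and 675 of 21050 genes. With a minimum mean count of 100, 1 of 14 members was higher and 2 lower, against 327 and 161 of 9411 genes. A 1.5-fold limit gave 4 of 24 members higher and 10 lower, against 1634 and 1021 of 12668 measured genes. A 4-fold limit gave 1 of 24 higher and 2 lower, against 218 and 128 of 12668. With the whole interval beyond 2-fold, 1 of 24 members was higher and 3 lower, against 353 and 185 of 12668 measured genes. The members' median log2 ratio ran from -0.26 to -0.12 over the medians tried, and the mean was -0.35. Leaving out 4 members of uncertain counting, Adgre5, Gpr137 and Gpr137b among them, was added after the data were seen and gave 6 lower and 2 higher of 20. No paired analysis was possible because each group had 1 library, and none could be left out. At 10 counts or fewer a 2-fold difference lies near the counting error, so the intervals of Gpr18 and Gpr176 are wide.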
